A study of Homo sapiens with 6 samples.

Results

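Kinesins are the motor proteins of the microtubule, and 41 of the 38900 genes in the expression table carry a kinesin symbol, written KIF or KIFC with a number and at most one further letter from A to C. The members were found by that pattern alone. They were divided by known role into 13 mitotic kinesins, 15 transport kinesins and 13 others, which serve cilia, signalling or microtubule dynamics or have less settled roles. KIFC1 is not analysed here, and the kinesins CENPE and STARD9, whose symbols do not follow the pattern, are given only for comparison.

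Expression was measured by RNA sequencing of polyA RNA from hTERT RPE1, an established human cell line from the retinal pigment epithelium that was immortalised with telomerase. All 6 libraries came from cells kept for 5 days at 100% confluency, a treatment meant to make them quiescent, and the labels call them so. RNA of proliferation genes was nonetheless present, with MKI67 at 2045 to 4849 normalized counts in the DMSO libraries and 1191 to 4233 in the CA4 libraries. Of these, 3 libraries came from cells given 0.1% DMSO, the solvent, and 3 from cells given 100 nM combretastatin A4 (CA4), each for 6 hours in fresh medium. The labels do not say whether the replicates were grown separately, so p-values measure only the spread between these libraries, which may be technical.

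A kinesin uses the energy of ATP to step along a microtubule, or in some families to take the microtubule apart from its end. Transport kinesins carry vesicles, mitochondria, endosomes and messenger RNA through the cell at all times. Mitotic kinesins build the spindle, move the chromosomes and organise cell division, and their genes are transcribed mainly late in the cell cycle, so cells that have left the cycle hold little of their RNA. CA4 binds tubulin and stops it from assembling, which takes away the track on which these motors walk. The comparison of CA4 with DMSO asks how RNA levels in these confluent cells respond to the drug.

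The deposited normalized counts were reads divided by one factor per library, and the recovered totals were 19524936 to 22538004 reads per library, so 1 read was worth close to 1 normalized count. The 13928 genes whose mean over the 6 libraries reached 10 normalized counts were tested with limma on log2(normalized count + 1), with Benjamini-Hochberg adjustment across all of them. In this test 688 (4.94%) passed an adjusted p of 0.05, 413 of them higher (2.97%) and 275 lower (1.97%) with CA4. The epithelial keratin gene KRT8 stood at 14118 to 16502 normalized counts, and 8 of 11 markers of the pigment epithelium reached the minimum. Among these, RPE65, the visual cycle isomerase, ran from 13.5 to 40.8 and BEST1, a channel of the mature epithelium, from 42.5 to 99.7 normalized counts. RLBP1, TYR and TYRP1 stayed under 10 in all 6 libraries. Of the 8 tested markers, 4 had a log2 fold change above 0 and 4 below, and only OTX2 passed. OTX2 had 533 ± 104 normalized counts with DMSO and 244 ± 15.5 with CA4, with a limma adjusted p of 0.0158. MITF had 885 ± 239 with DMSO and 457 ± 170 with CA4, with a limma adjusted p of 0.100. All 11 tested alpha and beta tubulin genes had a log2 fold change below 0, with a median of -1.78, and 9 of them passed the test. The 6 with the smallest p were TUBB3, TUBA1A, TUBB2A, TUBB, TUBB2B and TUBA1B. TUBB3 fell from 6822 ± 818 to 1024 ± 96.8 normalized counts (SD, n = 3 each), with a limma adjusted p of 2.87e-04.

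No kinesin passed that test. Of the 41 kinesins, 33 reached the minimum, and limma called 0 of the 33, against 4.94% of all genes. At an unadjusted p under 0.05, limma held 7 of the 33 (21.2%), against 23% of all genes. The quasi-likelihood test of edgeR on the recovered reads also called 0, against 4.62% of all genes, and it held 7 of the 33 at an unadjusted p under 0.05, against 22.7% of all genes. DESeq2 on the same reads called 2 of the 33, KIF5B and KIFC3 (6.06%), while it called 11.4% of all genes. The same 7 kinesins that limma held before adjustment had CA4 and DMSO values that did not overlap, 21.2% against 27.7% of all genes. In each of these counts the kinesin share was close to that of all genes or below it.

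Of the 7 that did not overlap, 4 were higher with CA4, KIF5B, KIFC3, KIF1B and KIF26B, against 14.3% of all genes in that direction. The other 3, KIF13A, KIF13B and KIF6, were lower, against 13.4% of all genes. None was a mitotic kinesin.

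**Figure D1:**
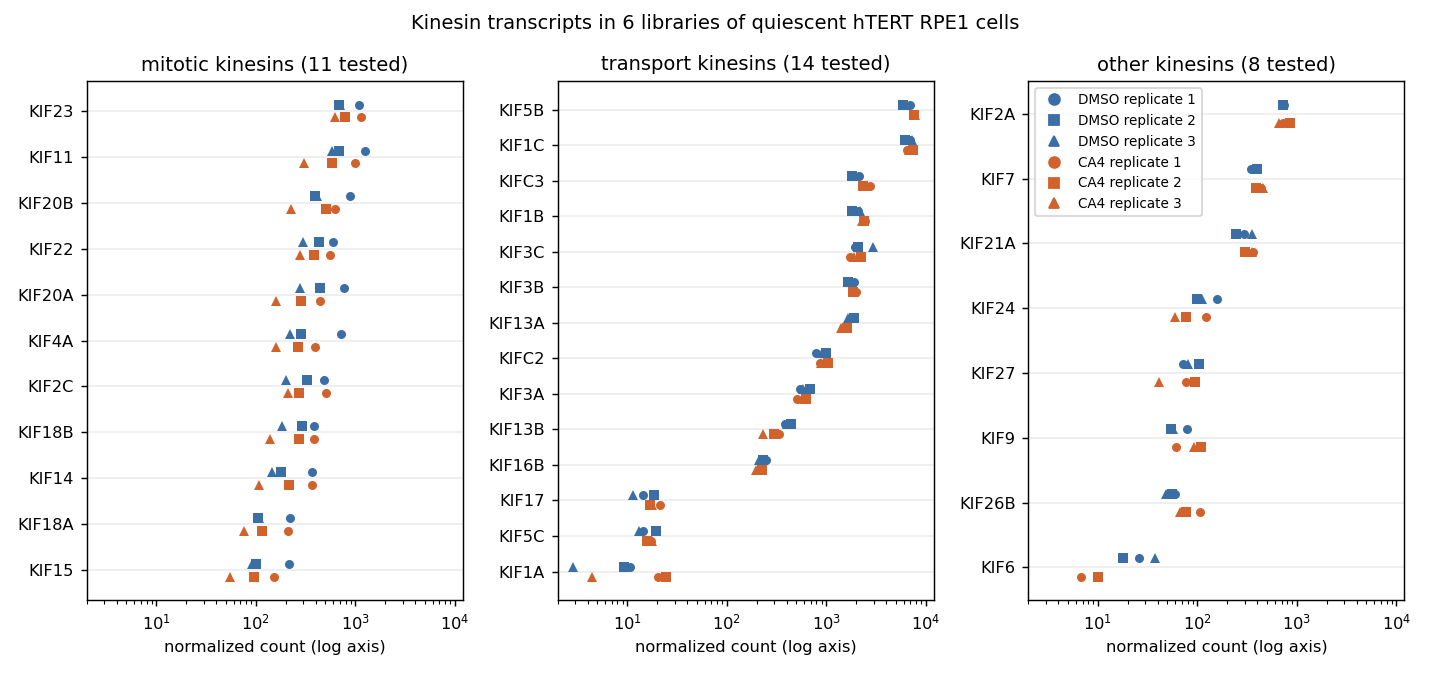
Normalized count of each tested kinesin (log axis) in every library, by class, with DMSO in blue and CA4 in orange and the symbol shape giving the replicate. The transport kinesins from KIF5B to KIF16B have points that lie close together, and the mitotic kinesins have points spread apart within both groups. KIF6 is the kinesin whose points lie farthest apart between the groups without overlap.

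To compare levels between genes, normalized counts were divided by the length of the longest coding transcript in GENCODE 29. On this per-kilobase scale KIF5B, the heavy chain of conventional kinesin, had the highest DMSO level of all kinesins, 1080 ± 94.0 (SD, n = 3). KIF1C, a kinesin-3 motor of secretory vesicles and of messenger RNA, followed at 861 ± 74.4, and its library values lay below those of KIF5B. The minus-end motor KIFC3 came next at 565 ± 52.1, and its spread overlapped that of KIF3C at 438 ± 99.1, a kinesin-2 subunit. KIF3B, KIF13A and KIFC2, at 293 ± 21.8, 258 ± 18.9 and 251 ± 29.1, did not differ from one another beyond their spread. The first mitotic kinesin in the order was KIF23 at 222 ± 60.3, in rank 8 after 7 transport kinesins. KIF11 stood at 173 ± 73.7 and KIF20A at 156 ± 78.4 on the same scale. RNA of mitotic motors was therefore present in these confluent cells, at levels that differed widely between libraries.

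Among the transport kinesins, KIF5B had 6956, 5881 and 6198 normalized counts in the 3 DMSO libraries and 7669, 7625 and 7844 in the 3 CA4 libraries. All 3 CA4 values lay above all 3 DMSO values, and the CA4 values lay within 1.03-fold of each other. The means were 6345 ± 552 and 7713 ± 116 (SD, n = 3 each), and the log2 fold change was 0.29 (SE 0.08, 95% interval 0.09 to 0.48) with a limma adjusted p of 0.0919. Intervals here and below are for single genes and are not adjusted for the number of genes. KIF5B did pass with DESeq2 (adjusted p = 0.0419), and with limma without DMSO replicate 1, its highest DMSO library (adjusted p = 0.0399), a setting in which 7.14% of all genes passed.

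KIF5B belongs to kinesin-1, the motor of many vesicles and of mitochondria, whose other heavy chains KIF5A and KIF5C are best known from neurons. KIF5C had 13.3 to 19.6 normalized counts in DMSO and 15.7 to 17.8 in CA4. KIF5A did not reach the minimum and had 0, 1 and 1 reads in the DMSO libraries against 11, 4 and 5 reads in the CA4 libraries. The ratio of its summed reads, corrected for library depth, was 11.2, with an exact 95% counting interval of 2.72 to 98.7, which covers counting error only. The groups of KIF5A did not overlap, but with 22 reads in all it entered no test, and it was singled out after its values were seen.

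KIFC3, which walks to the minus end and is known from apical transport and cell junctions in epithelia, had 2141, 1823 and 1841 normalized counts with DMSO and 2733, 2363 and 2589 with CA4. The lowest CA4 library was above the highest DMSO library. The means were 1935 ± 179 and 2562 ± 187 (SD, n = 3 each), and the log2 fold change was 0.41 (SE 0.10, 95% interval 0.18 to 0.64). Its limma adjusted p of 0.0585 was the smallest of all kinesins. It was called by DESeq2 (adjusted p = 0.0096) and by limma without DMSO replicate 1 (adjusted p = 0.0343). KIFC2, the related minus-end motor, had means of 895 ± 104 and 931 ± 93.3, and 17.8% of its exon bases overlap FOXH1 on the opposite strand. Whether the counting used strand is not given in the sources used here, so reads of such pairs cannot be told apart.

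Kinesin-3 is the family of fast, long-range carriers of endosomes and vesicles, and its members did not share a direction. KIF1C had 6927, 6183 and 7347 normalized counts with DMSO and 6501, 7495 and 6779 with CA4, so that the groups overlapped throughout. Its log2 fold change was 0.02 (SE 0.09, 95% interval -0.20 to 0.24) with a limma adjusted p of 0.916, and its sign turned under other scalings of the libraries. KIF1B, which carries mitochondria and synaptic vesicle precursors, had 2079, 1809 and 2172 with DMSO and 2461, 2393 and 2317 with CA4. The groups of KIF1B did not overlap, and its log2 fold change was 0.25 (SE 0.09) with a limma adjusted p of 0.165.

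The kinesin-3 motors KIF13A and KIF13B pointed the other way. KIF13A, which moves recycling endosomes, had 1813, 1898 and 1641 normalized counts with DMSO and 1464, 1637 and 1402 with CA4. The highest CA4 value lay just under the lowest DMSO value, and the log2 fold change was -0.25 (SE 0.10) with a limma adjusted p of 0.183. KIF13B, which binds the scaffold protein DLG1, had 387, 445 and 403 with DMSO and 334, 299.6 and 233 with CA4. Its groups lay farther apart, with a log2 fold change of -0.52 (SE 0.16, 95% interval -0.89 to -0.15) and a limma adjusted p of 0.103.

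The remaining kinesin-3 carriers were close to their DMSO level or thinly read. KIF16B, the early endosome motor, had 211 to 250.1 normalized counts with DMSO and 199.5 to 228 with CA4. KIF1A, the neuronal vesicle motor, had 3 to 22 reads per library and means of 7.61 ± 4.17 and 16.5 ± 10.6 normalized counts. With an overall mean of 12 it was the last kinesin inside the minimum, and KIF21B, with 7.22, was the first outside. KIF1A and KIF6 were tested although the mean of one of their groups was under the minimum of 10.

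Kinesin-2 motors carry cargo into the cilium and along the cell body. KIF3A and KIF3B, which join with the adaptor KIFAP3 into one heterotrimer, had means of 607 ± 69.1 and 1788 ± 133 with DMSO and 583 ± 63.3 and 1926 ± 78.3 with CA4. KIF3C, which can pair with KIF3A in place of KIF3B, had 1970.2, 2102 and 2947 with DMSO and 1744, 2220.5 and 1914 with CA4, and DMSO replicate 3 stood above the other 5 libraries. The homodimeric KIF17 stood at 11.4 to 21.3 normalized counts over all 6 libraries. Log2 fold changes of these kinesin-2 genes ran from -0.24 for KIF3C to 0.33 for KIF17, and the smallest limma adjusted p was 0.436, that of KIF3C. With each library left out in turn, KIF3C ran from -0.35 to -0.06 and KIF17 from 0.16 to 0.50. KIFAP3 itself had 699.5 ± 25.5 with DMSO and 531 ± 43.1 with CA4, with groups that did not overlap, a log2 fold change of -0.40 (SE 0.10) and a limma adjusted p of 0.0711.

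The transport kinesins as a class had a median log2 fold change of 0.08, beside -0.0082 for all tested genes, and 9 of the 14 tested were above 0. When all libraries were scaled to the same total, which lowered the median of all genes by 0.10, that median was -0.02. The median width of their 95% intervals to either side was 0.29 on the log2 scale, against 0.37 for all genes. Adaptors, light chains and activators of transport were read from a list of 23 genes, of which 21 were tested, and limma called 0 of them (4.94% of all genes). Their median log2 fold change was 0.10, and 13 of the 21 were higher. After KIFAP3 the smallest p was that of RHOT1, the outer mitochondrial membrane GTPase that links mitochondria to kinesin-1, with 656 ± 37.8 and 506 ± 32.3 normalized counts and an adjusted p of 0.0819. KIFAP3 and RHOT1 passed when the libraries were scaled to the same total (adjusted p of 0.0446 and 0.0464) and with DESeq2 (0.0247 and 0.0391).

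**Figure D2:**
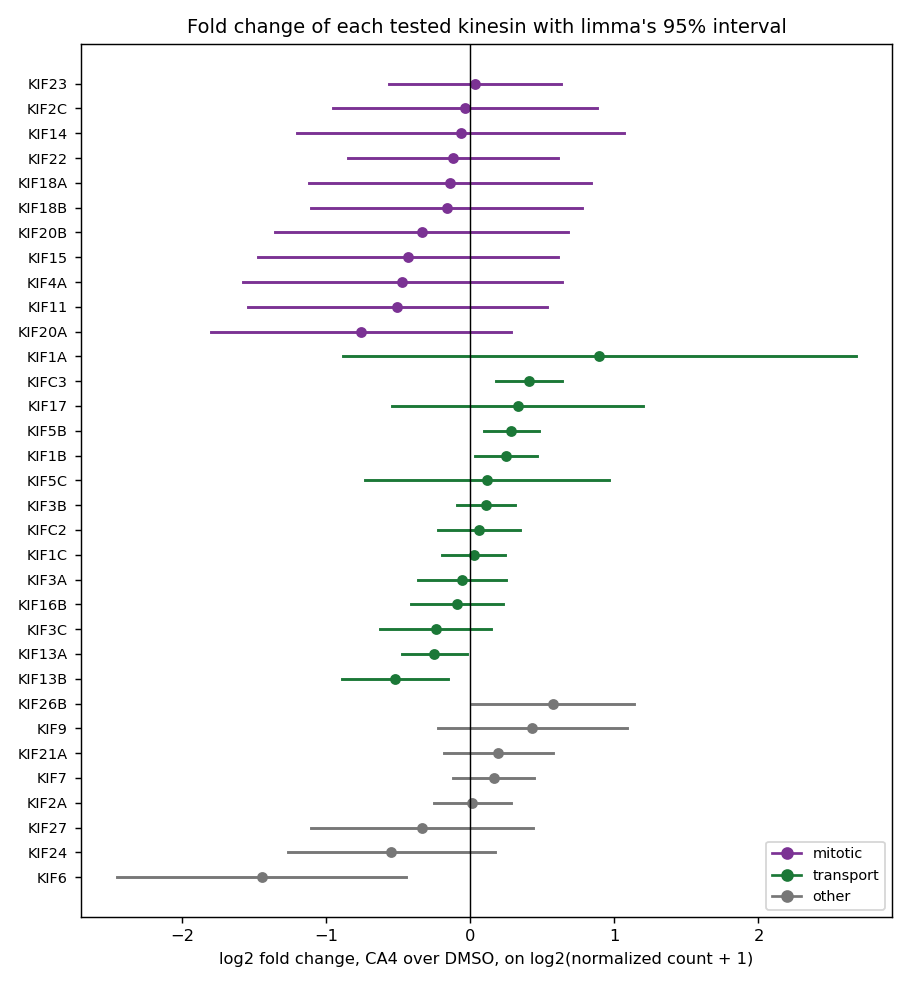
Log2 fold change of CA4 over DMSO from limma for each tested kinesin, with its unadjusted 95% interval, by class, and with 0 marked. The intervals of KIF5B, KIFC3, KIF1B, KIF26B, KIF13A, KIF13B and KIF6 do not reach 0, and the mitotic kinesins have wide intervals that all do.

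Among the mitotic kinesins, 11 of 13 were tested, and limma called 0 of them. KIF11, also known as Eg5, pushes the spindle poles apart. It had 1251, 688 and 585 normalized counts in the DMSO libraries and 1001, 579 and 302 in the CA4 libraries. The groups overlapped, with replicate 1 high in both, and the log2 fold change was -0.51 (SE 0.44, 95% interval -1.54 to 0.53) with a limma adjusted p of 0.546. Leaving out CA4 replicate 1 gave -0.93, and leaving out DMSO replicate 1 or CA4 replicate 3 gave -0.18 or -0.063. KIF15, which can stand in for KIF11 on the spindle, ran from 91.2 to 216 with DMSO and from 54.6 to 152 with CA4.

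The kinesin-6 motors act in the central spindle and in cytokinesis. KIF20A, which brings the chromosomal passenger complex to the midzone, had 774, 445 and 281 normalized counts with DMSO and 443, 283 and 159 with CA4. Its log2 fold change of -0.76 (SE 0.45, 95% interval -1.80 to 0.29) was the lowest among the mitotic kinesins, and its limma adjusted p was 0.363. With each library left out in turn it ran from -1.11, without DMSO replicate 3 or CA4 replicate 1, to -0.38, without DMSO replicate 1 or CA4 replicate 3. KIF23, the motor of centralspindlin, had 1086, 693 and 703 with DMSO and 1149, 794 and 621 with CA4. Its log2 fold change was 0.03 (SE 0.26, 95% interval -0.56 to 0.63) with a limma adjusted p of 0.958, the one mitotic value above 0. Scaling the libraries to the same total turned it to -0.07. KIF20B had means of 564 ± 282 and 451 ± 202 normalized counts.

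Motors of the chromosomes and of the microtubule ends had the same wide spread between libraries. KIF4A, which acts on chromosome structure and the midzone, had 711, 286 and 218 with DMSO and 395, 264 and 159 with CA4. It shares 13.4% of its 50-base words with the retrogene KIF4B, so a small part of its reads is uncertain in origin. KIF22, which pushes chromosome arms from the poles, had means of 443 ± 150.5 and 407 ± 139, and 13% of its exon bases overlap a gene on the opposite strand. KIF18A and KIF18B, which limit microtubule growth in the spindle, had means of 145 ± 66.0 and 286 ± 102 with DMSO and 134 ± 68.2 and 264 ± 122 with CA4. KIF2C, the depolymerase at centromeres, had 337 ± 139 and 332 ± 158, and KIF14, which works with citron kinase in abscission, had 233 ± 121 and 229 ± 129. For each of these genes the larger of its group SDs exceeded the difference between the group means.

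The mitotic kinesins shared their highest library in each group and their lowest CA4 library, but not their lowest DMSO library. DMSO replicate 1 was the highest DMSO library for 11 of 11, which was so for 38.1% of all tested genes. CA4 replicate 1 was the highest CA4 library for 11 of 11 (33.6% of all genes), and CA4 replicate 3 was the lowest for 11 of 11 (32.0%). The lowest DMSO library was replicate 3 for 8 of 11 (31.6% of all genes) and replicate 2 for 3 of 11 (32.4%). The highest DMSO library exceeded the lowest by 1.57-fold for KIF23 up to 3.25-fold for KIF4A, with a median of 2.26-fold, and in CA4 the median was 2.74-fold. For the transport kinesins the same medians were 1.19-fold and 1.16-fold.

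**Figure D3:**
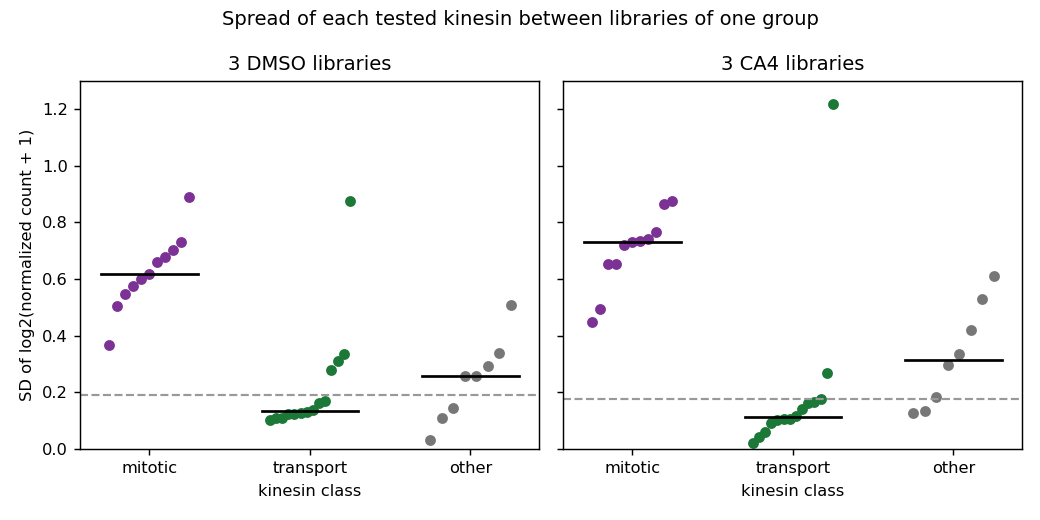
SD of log2(normalized count + 1) over the 3 libraries of each group, for each tested kinesin by class, with a short solid line at the class median and a dashed line at the median of all tested genes. All 11 mitotic kinesins lie above the dashed line in DMSO and in CA4, whereas 10 of 14 transport kinesins lie at or below it in DMSO and 12 of 14 in CA4, and the highest point is the thinly read KIF1A in CA4.

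The median SD of the mitotic kinesins on the log2 scale was 0.62 in DMSO and 0.73 in CA4, against 0.19 and 0.18 for all tested genes. For the transport kinesins it was 0.13 and 0.11, with 4 of 14 above the median of all genes in DMSO and 2 of 14 in CA4. The median interval of the mitotic kinesins reached 1.02 to either side on the log2 scale. That interval comes from the fit that takes no account of replicate numbers, and it is wider than the log2 fold change of KIF5B. Which size of difference could be detected in the mitotic class was not tested.

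The median log2 fold change of the mitotic kinesins was -0.16, and 10 of the 11 were below 0. That median ran from -0.52, without CA4 replicate 1, to 0.12, without CA4 replicate 3, with each library left out in turn. It was above 0 only without DMSO replicate 1 (0.09) or CA4 replicate 3, and below 0 without any of the other libraries. Markers of proliferating cells followed the same libraries. Of 15 such genes, MKI67 and CCNB1 among them, 15 had DMSO replicate 1 as their highest DMSO library and 15 had CA4 replicate 3 as their lowest CA4 library. Their mean level per library on the log2 scale was 9.05 to 10.10 in DMSO and 8.38 to 9.62 in CA4. In bulk RNA, fewer dividing cells and less of these transcripts per cell cannot be told apart, and the part of the proliferation markers in the mitotic kinesin values was not tested.

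**Figure D4:**
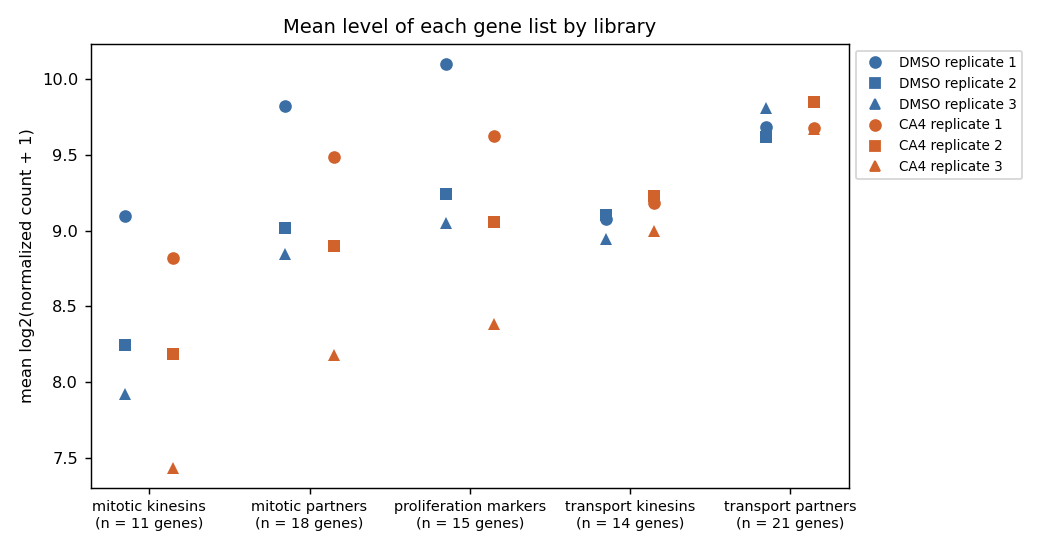
Mean log2(normalized count + 1) of each gene list in the 6 libraries. Mitotic kinesins, mitotic partners and proliferation markers are highest in DMSO replicate 1 and lowest in CA4 replicate 3, and transport kinesins and transport partners vary little between libraries.

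The mean of the 11 mitotic kinesins on the log2 scale was 9.10, 8.24 and 7.92 in the DMSO libraries and 8.82, 8.19 and 7.44 in the CA4 libraries. For the 14 transport kinesins it was 9.07, 9.10 and 8.94, and then 9.18, 9.22 and 8.99. The mitotic mean thus ranged over more than a log2 unit within each group, and the transport mean over a small part of that.

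Non-motor proteins of the spindle and midzone, a list of 18 genes that includes TPX2, PRC1 and AURKB, gave 0 calls by limma as well, with a median log2 fold change of -0.38. All 18 were below 0, and 17 of the 18 had DMSO replicate 1 as the highest DMSO library. The smallest adjusted p values of that list were 0.0999 for CKAP5, a microtubule polymerase, with means of 3142 ± 438 and 2295 ± 301, and 0.109 for NUMA1, which anchors dynein at the spindle poles. Both passed with DESeq2 (adjusted p of 0.0288 and 0.0228), and NUMA1 also passed with limma without DMSO replicate 1 (adjusted p of 0.0399). Of the 15 proliferation markers limma called 0, with a median of -0.45 and 14 below 0. MCM2 and MCM5, subunits of the replicative helicase, had the smallest adjusted p, 0.112 and 0.184. CENPE, the kinetochore kinesin, ran from 249 to 606.5 normalized counts in DMSO and from 121 to 555 in CA4. STARD9, a centrosomal kinesin, had means of 286.5 ± 94.9 and 274 ± 77.1. Neither passed, with adjusted p of 0.687 and 0.952.

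Markers of other cell types were read as well, 11 genes of which 5 were tested and 0 were called by limma. The mean log2 level of those 5 was 7.74 to 8.21 in the DMSO libraries and 8.18 to 8.80 in the CA4 libraries. Of the 5, 4 had a log2 fold change above 0, and the median was 0.64 beside -0.0082 for all genes. These were SYP and the endothelial markers PECAM1, VWF and CDH5, the last 3 with log2 fold changes of 0.74, 0.65 and 0.64. PECAM1, with the smallest p, had 317 ± 29.1 normalized counts with DMSO and 577 ± 298 with CA4, with groups that did not overlap. Its log2 fold change was 0.74 with a limma adjusted p of 0.215, and it ran from 0.35 to 1.03 with each library left out in turn. The macrophage marker CD68, the one below 0, had 797 ± 109 and 634 ± 117, also without overlap, a log2 fold change of -0.34 and a limma adjusted p of 0.279. Within the CA4 group, 4 of the 5 were highest in replicate 3, the library in which the mitotic kinesins were lowest, and PECAM1 and VWF reached 916 and 1732 there. Of the markers under the minimum, EPCAM had 0 to 4 reads per library and MYOD1 0 to 2. CDH1, RBFOX3, DES and PTPRC reached at most 32.3, 18.9, 16.4 and 10.6 normalized counts. PTPRC had 3.17 ± 0.60 with DMSO and 6.90 ± 3.28 with CA4, without overlap, on 3 to 11 reads per library. The part of these genes in the kinesin values was not tested.

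The kinesin promoters were read for the elements known to direct cell cycle transcription of mitotic genes. A link between these elements and the differences between libraries was not tested. Windows from 250 bases before to 50 bases after the start were taken from RefSeq on GRCh38.p14, and 33 of the 41 kinesins had one. The cell cycle homology region (CHR) was searched as TTTGAA and the NF-Y box as CCAAT, both on either strand, so that they appear as TTCAAA and ATTGG where they lie on the other strand. Capitals mark these matches. KIF23 and KIF11 are shown as the mitotic kinesins with the highest mean, KIF20A as the one with the smallest p, and KIF5B as the one transport kinesin whose window held the CHR letters. The windows are chr15:69414099-69414398 on the plus strand for KIF23, chr10:92592880-92593179 on the plus strand for KIF11, chr5:138178862-138179161 on the plus strand for KIF20A and chr10:32056376-32056675 on the minus strand for KIF5B.
KIF23: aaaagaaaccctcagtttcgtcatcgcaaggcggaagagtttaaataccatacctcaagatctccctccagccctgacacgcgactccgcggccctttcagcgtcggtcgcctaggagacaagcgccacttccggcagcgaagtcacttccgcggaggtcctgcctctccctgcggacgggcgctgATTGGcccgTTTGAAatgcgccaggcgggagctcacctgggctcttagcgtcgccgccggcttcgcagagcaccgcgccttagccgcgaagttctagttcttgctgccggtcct
KIF11: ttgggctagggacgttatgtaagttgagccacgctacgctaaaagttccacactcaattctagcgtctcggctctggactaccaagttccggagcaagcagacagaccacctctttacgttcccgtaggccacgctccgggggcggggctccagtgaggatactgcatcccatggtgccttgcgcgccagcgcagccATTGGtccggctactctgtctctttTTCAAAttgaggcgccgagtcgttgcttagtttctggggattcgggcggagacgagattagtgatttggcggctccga
KIF20A: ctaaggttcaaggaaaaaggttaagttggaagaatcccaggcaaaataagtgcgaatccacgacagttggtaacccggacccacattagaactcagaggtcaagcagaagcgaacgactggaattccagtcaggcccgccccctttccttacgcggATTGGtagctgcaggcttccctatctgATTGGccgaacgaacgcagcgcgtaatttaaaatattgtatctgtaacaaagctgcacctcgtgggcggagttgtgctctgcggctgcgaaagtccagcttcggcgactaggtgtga
KIF5B: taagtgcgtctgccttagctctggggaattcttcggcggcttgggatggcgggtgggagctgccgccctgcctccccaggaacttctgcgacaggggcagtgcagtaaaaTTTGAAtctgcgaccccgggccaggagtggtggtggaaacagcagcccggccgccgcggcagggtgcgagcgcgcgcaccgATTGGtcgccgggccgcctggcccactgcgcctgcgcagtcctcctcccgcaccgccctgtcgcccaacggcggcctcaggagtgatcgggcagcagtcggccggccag

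In KIF23 the CHR letters lie 55 to 50 bases upstream of the start and the CCAAT box 64 to 60 bases upstream, a few bases apart. In KIF11 they lie 28 to 23 and 53 to 49 bases upstream. KIF20A holds a pair of CCAAT boxes, 94 to 90 and 67 to 63 bases upstream, and no TTTGAA in this window. In KIF5B the CHR letters lie farther out, 140 to 135 bases upstream, with a CCAAT box at 59 to 55.

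Over the class, 9 of 14 windows of mitotic kinesins held TTTGAA (64.3%), against 15.2% of all 35116 windows in the table. The 9 include that of KIF4B, a gene under the minimum, and the windows of KIF20A, KIF22, KIF2B and KIF2C held none. Of the transport kinesins, 1 of 16 windows held it (6.25%), that of KIF5B, and of the other kinesins 0 of 12. CCAAT was in 71.4% of the mitotic windows, 31.3% of the transport windows and 33.3% of the other windows, beside 34.6% of all. Both elements together were in 57.1% of the mitotic windows and in 5.90% of all. The E2F letters TTGGCGC or TTCCCGC were in 21.4% of mitotic, 18.8% of transport and 16.7% of other windows, beside 9.23% of all. Some genes have more than 1 window, and a match of letters is a description of the sequence and not a measured binding site.

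Among the tested kinesins, the largest log2 fold change in size was in the remaining class, in a thinly read gene. KIF6, a kinesin-9 member linked to cilia, had 26.1, 17.8 and 37.0 normalized counts with DMSO and 6.77, 10.1 and 10 with CA4. The groups did not overlap, and the means were 27.0 ± 9.67 and 8.96 ± 1.91 (SD, n = 3 each). The log2 fold change was -1.45 (SE 0.43, 95% interval -2.45 to -0.45) with a limma adjusted p of 0.0976, and it rests on 7 to 39 reads per library. KIF9, the related motor of motile cilia, pointed the other way with means of 63.5 ± 13.7 and 87.0 ± 23.9 and overlapping groups, and 14.9% of its exon bases overlap KIF9-AS1 on the opposite strand.

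KIF26B, a kinesin that acts in signalling rather than in stepping, had 58.9, 56.1 and 48.4 normalized counts with DMSO and 105, 76.3 and 66.9 with CA4. The groups did not overlap, and the log2 fold change was 0.57 (SE 0.24, 95% interval 0.0088 to 1.14) with a limma adjusted p of 0.212. Its relative KIF26A did not reach the minimum, with 9 reads over the DMSO libraries and 14 over the CA4 libraries.

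KIF2A, which takes microtubules apart from their ends, had the highest mean count of these other kinesins. It had 748, 717 and 722 normalized counts with DMSO and 724, 843 and 654 with CA4, so the CA4 libraries lay on both sides of the DMSO libraries. Its log2 fold change was 0.01 (SE 0.11, 95% interval -0.25 to 0.28) with a limma adjusted p of 0.958. Its sign turned when the libraries were scaled to the same total (-0.09). KIF2A shares 8.97% of its exon bases with IPO11 on the same strand. KIF24, which like KIF2A belongs to kinesin-13, had means of 123 ± 30.4 and 86.0 ± 32.9.

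KIF7, the ciliary regulator of Hedgehog signalling, had 348, 401 and 387 normalized counts with DMSO and 436, 384 and 454 with CA4. The groups overlapped in 1 CA4 library, and the log2 fold change was 0.16 (SE 0.12, 95% interval -0.12 to 0.44) with a limma adjusted p of 0.470. Of its exon bases, 11.8% overlap TICRR on the opposite strand. Its paralog KIF27 had means of 85.3 ± 15.7 and 70.6 ± 27.0, and 14.8% of its 50-base words also occur in another annotated gene. KIF21A, which restrains microtubule growth, ran from 247 to 352 with DMSO and from 303 to 359.5 with CA4. The 8 tested members of this class had a median log2 fold change of 0.09, with 5 above 0 and 0 called by limma, and under the same-total scaling the median was -0.01.

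The 8 kinesins under the minimum were KIF2B, KIF4B, KIF5A, KIF12, KIF19, KIF21B, KIF25 and KIF26A. KIF2B, a spindle depolymerase, had 0 reads in all 6 libraries, which allows up to 3 reads in each and covers counting error only. KIF12 and KIF25 had 1 read each, in a CA4 library. KIF4B and KIF19 had 4 reads each over the 6 libraries. KIF21B had 26 reads with DMSO and 18 with CA4, and no fold is given for these genes other than KIF5A.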

How the data were processed

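RNA-seq libraries from 3 DMSO and 3 CA4 samples were grouped by their titles. Per the file headers the deposited table has 1 column for each library, and its values are a signal: reads per gene over one scaling factor for the whole library. The submitters' processing notes name Trim Galore 0.6.6, FastQC 0.12.1, Salmon 1.8.0, STAR 2.7.9a, DESeq2 1.44.0 and GRCh38. The annotation release and the use of strand are not given in the sources used here. All values (100%) were whole multiples of a step that stands for 1 read (tolerance 0.01), and the reads recovered from it, 19524936 to 22538004 per library, may be rounded estimates.

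limma 3.58.1 in R 4.3.3 was fitted to log2(normalized count + 1), with a mean trend, over 13928 genes with a mean of at least 10. Fold changes on this scale understate the change of low genes. p-values are two-sided and adjusted by Benjamini-Hochberg over all tested genes, with a threshold of 0.05. edgeR 4.0.16 and DESeq2 1.42.0 were run on the recovered reads as alternatives and called 643 and 1592 genes. In data simulated for this comparison, with 200 of 13928 genes changed by 2-fold, limma recovered 52%, limma with the replicate block 47.5%, edgeR 51.5% and DESeq2 69.5%. Of their calls 7.96%, 12.8%, 7.21% and 24.0% were false. The simulated counts held no effect shared by same-numbered libraries, so they cannot show how the replicate block performs where such an effect exists.

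Symbols came from a supplied table of gene names or GENCODE 29, and lengths and overlaps from GENCODE 29 on GRCh38, which may not be the authors' annotation. Every kinesin is named. Library values, log2 fold change, SE and limma adjusted p are given in each class for the 2 with the highest mean and the 2 with the smallest p. They are also given for the tested kinesins whose groups did not overlap. Of each other list the 2 genes with the smallest p are named or, where any passed, up to 6 past the threshold, and TUBB3 is given with values for the tubulins. Other list members named were added to show the range of the list. The members and lists were chosen with earlier results of these data known. Alternatives were other pseudocounts, filters, scalings and variance models, a replicate block, each library left out, and both count tests.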

Additional observations from a re-analysis of the deposited data

How the results depend on the processing

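Of the 33 tested kinesins, 20 kept their sign in every alternative that tested them and 13 did not, and 5 were called in at least 1. There were 18 alternatives for 29 kinesins and 17 for KIF6, KIF17, KIF1A and KIF5C, which a minimum mean of 50 leaves out. The count of called kinesins, 0 with limma, was 5 with the replicate block and 2 with DESeq2, and 0 to 2 when each library was left out in turn. The 2 were KIF5B and KIFC3 without DMSO replicate 1, when 7.14% of all genes were called. Calls over all genes were 81 to 994 with each library left out (50 to 605 higher, 31 to 389 lower), with 994 without DMSO replicate 1, 100 without DMSO replicate 2, 81 without DMSO replicate 3, 156 without CA4 replicate 1 and 150 without CA4 replicate 3. They were 103 without the mean trend (51 higher, 52 lower) and 1592 with DESeq2 (892 higher, 700 lower). With libraries scaled to the same total 523 genes were lower. Of 21 transport partners, 0 were called by limma as fitted in the report, 2 with the same total (5.76% of all genes), 2 with DESeq2 (11.4% of all genes) and 0 to 1 with a library left out (KLC4, without DMSO replicate 1). Of 18 mitotic partners 2 were called with DESeq2 and 0 to 1 with a library left out (NUMA1, without DMSO replicate 1), and of 15 proliferation markers 1 with DESeq2. OTX2, the one of 8 tested pigment epithelium markers past the threshold (log2 fold change -1.11, adjusted p 0.0158), lost its call without DMSO replicate 2 or 3, without CA4 replicate 1 or 3 and without the mean trend. The causes were not tested.

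Libraries with the same replicate number deviated together with correlations of 0.20, 0.16 and 0.06, not all above 0.1, and nothing in the labels ties same-numbered libraries to one culture. The fit with the replicate block called 2397 genes (17.2%), 1260 higher and 1137 lower. Its 5 kinesins were KIF13A, KIF13B, KIF20A (adjusted p 0.0063), KIF5B and KIFC3, and it called 4 transport partners, 5 mitotic partners and 8 proliferation markers. The mean log2 level of the mitotic kinesins was lower in the CA4 than in the DMSO library of each replicate number.

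Log2 fold changes that turned sign under another scaling were KIF14 (0.016), KIF2C (0.017), KIF1C (-0.053) and STARD9 (0.0059) with quantile normalization. With the same 75th percentile they were KIF2A (-0.018) and KIF1C (-0.0094), and with the same total KIF23 (-0.068), KIF2A (-0.086), KIF1C (-0.078) and KIFC2 (-0.043). With each library left out in turn, the sign also turned for KIF14 (-0.48 to 0.39), KIF18A (-0.52 to 0.21), KIF18B (-0.49 to 0.24), KIF20B (-0.63 to 0.10), KIF22 (-0.38 to 0.12), KIF23 (-0.20 to 0.25), KIF2C (-0.40 to 0.26), KIF4A (-0.82 to 0.030) and KIF27 (-0.58 to 0.0071). The same held for KIF2A (-0.082 to 0.10), KIF1C (-0.046 to 0.079), KIF3A (-0.12 to 0.033), KIFC2 (-0.031 to 0.14), CENPE (-0.90 to 0.19) and STARD9 (-0.35 to 0.21). KIF6 rests on 7 to 39 reads per library and KIF1A on 3 to 22, and the mitotic kinesins had a wide spread between libraries. The part of either in the lack of calls was not tested.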
